A study of Mus musculus with 12 samples.

Results

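Dual-specificity MAP kinase phosphatases (DUSPs) were followed in activated regulatory T cells (Treg) of mice with a venous thrombus. The 10 genes described here are Dusp1, Dusp2, Dusp4, Dusp5, Dusp6, Dusp7, Dusp10, Dusp14, Dusp16 and Dusp22, taken by name from the deposited gene tables. All 10 were found in every library, among 20838 genes that could be joined over the libraries, and all 10 passed the filter on low counts that left 11691 genes to test. MAP kinases (ERK, JNK and p38) carry signals from the T cell receptor, costimulation, cytokines and stress to the nucleus, and are switched on by phosphorylation of a threonine and a tyrosine in their activation loop. DUSPs remove both phosphates. Many DUSP genes are themselves induced by MAP kinase activity, so that they act as feedback brakes, and family members differ in where they sit in the cell and in which kinase they prefer.

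The study measured RNA of sorted cells by bulk sequencing. The mice were DEREG animals, a C57BL/6 line whose transgene expresses a fusion of the diphtheria toxin receptor and EGFP from the Foxp3 promoter. Deep vein thrombosis had been induced by ligating the inferior vena cava, and tissue was taken at day 14. Live CD45+ CD4+ EGFP+ CD69+ cells were sorted from thrombus, vein wall and spleen, with 4 libraries per tissue. All groups share the transgene, the ligation and the day, and the spleens came from thrombotic animals too, so no group is free of thrombosis. EGFP marks the cells in which the transgene is active, and CD69, an early activation marker, was part of the gate in all 3 tissues. Animal age and the number of mice per library are not given in the labels, so the p-values rest on variation between samples that could be partly technical.

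Total exon reads per library ran from 9719151 to 55386086. Spleen libraries 3 and 4 were near-duplicates, as were vein wall libraries 3 and 4. Their mean chi-square per gene was 3.96 and 2.55, against 96.9 to 355 in the other 16 replicate pairs. Each close pair was summed, which left 4 thrombus, 3 vein wall and 3 spleen samples. The files also fall into 3 sets by layout and gene models. Set 1 holds thrombus 1 and spleen 1, set 2 holds thrombus 2, vein wall 1 and spleen 2, and set 3 holds the rest. The sets also differed in transcripts of the sex chromosomes. The Y-linked Ddx3y had 0 exon reads in set 1, 1063 to 2237 in set 2 and 780 to 5235 in set 3. Xist, expressed in females, had 86 and 242 exon reads in set 1, 495 to 1147 in set 2 and 0 counted in set 3. In set 3, 22044 of 41018 gene entries hold exons, and whether Xist is among them was not checked. Its count of 0 there may therefore not be a measured absence. File set and the sex of the animals can thus not be told apart, and the part of sex was not tested. Foxp3 was present in every sample, at 275 to 706 CPM, the exon reads scaled to library size, in thrombus, 354 to 484 CPM in vein wall and 401 to 675 CPM in spleen.

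Dusp4, Dusp10 and Dusp14 were higher in every thrombus sample and in every vein wall sample than in any spleen sample. In both comparisons these were 3 of the 10 genes, and the groups of the other 7 overlapped. Over all tested genes, every sample was higher in 2.50% for thrombus against spleen and in 6.76% for vein wall against spleen. No DUSP was lower in every sample, as 2.50% and 6.49% of all genes were in these comparisons. No DUSP passed an adjusted p of 0.05 in the edgeR quasi-likelihood test with tissue as the single factor, in which 0.145% of all genes passed for thrombus against spleen and 0.111% for vein wall against spleen. At an unadjusted p under 0.05 the same test held 3 DUSPs in each of these comparisons, where 4.14% and 5.47% of all genes were. The DESeq2 test called 3 and 2 DUSPs, and 148 and 200 of all genes. With the set of files as a covariate, Dusp4, Dusp10 and Dusp14 rose in thrombus, where 0.453% of all genes were called and 0.428% called higher, and Dusp10 and Dusp14 rose in vein wall, where 0.411% were called and 0.385% called higher. Leaving out the set 2 libraries, without the covariate, left Dusp4 alone called in thrombus (edgeR adjusted p = 0.0475) and no DUSP in vein wall, where Dusp4 had 0.0501. That fit called 18 and 8 of all genes. In bulk RNA, a difference in the number of cells that express a gene and a difference in RNA per cell cannot be told apart.

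**Figure D1:**
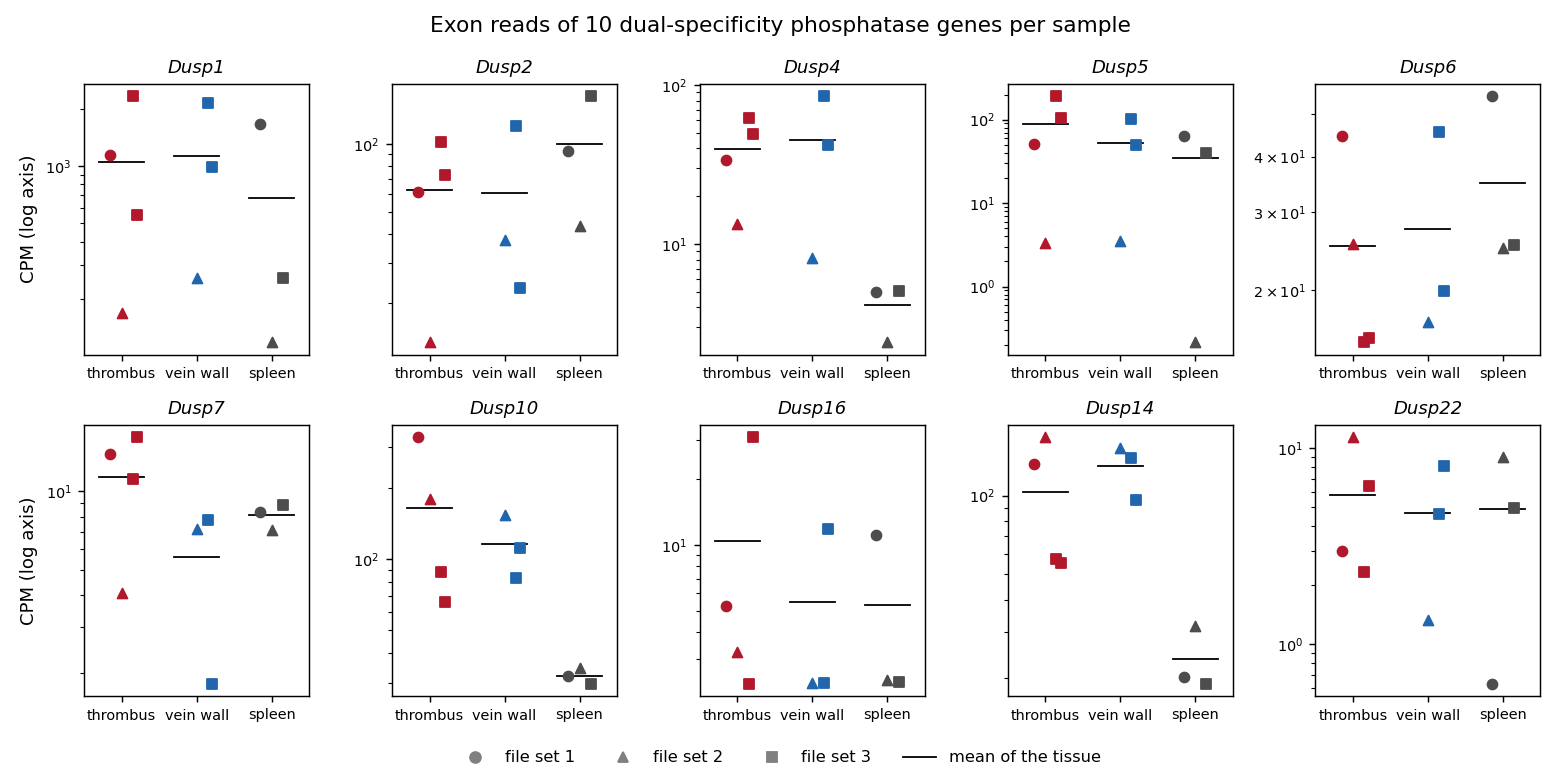
Each panel plots 1 gene in CPM on a log axis, with 1 point per sample, grouped as thrombus, vein wall and spleen; marker shapes give the file set and black lines the tissue mean. The points of Dusp4, Dusp10 and Dusp14 in thrombus and vein wall all lie above the spleen points, while Dusp1 and Dusp5 have their lowest points in file set 2 in each tissue.

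The first group holds the inducible nuclear phosphatases. Dusp4 (chromosome 8, 34807297 to 34819894, plus strand, GRCm38) encodes a nuclear enzyme that acts on ERK, JNK and p38 and is induced by ERK signalling. Dusp4 had 34.1, 13.5, 61.8 and 49.2 CPM in thrombus samples 1 to 4. It had 8.17, 42.0 and 85.6 CPM in vein wall samples 1, 2 and 3-4, against 4.98, 2.41 and 5.05 CPM in spleen samples 1, 2 and 3-4. The lowest thrombus and vein wall values both came from file set 2, as did the lowest spleen value. The thrombus mean was 39.6 ± 20.8 CPM (SD, n = 4) and the vein wall mean 45.2 ± 38.8 CPM (n = 3), which are 9.55 and 10.9 times the spleen mean of 4.15 CPM (range 2.41 to 5.05 CPM, n = 3).

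For Dusp4 the log2 fold change of thrombus against spleen was 3.25 ± 0.76 (SE), with an edgeR adjusted p of 0.170. With the file set as covariate it was 2.86 ± 0.55 (adjusted p = 0.0206). For vein wall against spleen the values were 3.45 ± 0.78 (adjusted p = 0.144) and, with the covariate, 2.82 ± 0.62 (adjusted p = 0.0532). The direction was the same within each set: on the log2(CPM + 0.5) scale, thrombus minus spleen was 2.66, 2.26 and 3.33 in sets 1, 2 and 3, and vein wall minus spleen was 1.57 in set 2 and 3.45 in set 3. Spleen levels rest on few reads, 71, 45 and 390 in samples 1, 2 and 3-4. Reads in introns were 12.4% to 23.5% of the Dusp4 gene reads in thrombus, 18.2% to 39.4% in vein wall and 16.7% to 51.4% in spleen.

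Dusp1 (chromosome 17, 26505590 to 26508519, minus strand) is an immediate early gene whose nuclear product acts mainly on p38 and JNK. It had 1148, 168, 2335 and 552.5 CPM in thrombus samples 1 to 4. Vein wall samples 1, 2 and 3-4 had 257, 985 and 2137 CPM, and spleen samples 1, 2 and 3-4 had 1669, 118 and 258 CPM. The tissues overlapped across most of their ranges. The set 2 sample was the lowest of each tissue.

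No change of Dusp1 was called. Its log2 fold change was 0.62 ± 1.21 (SE) for thrombus against spleen (edgeR adjusted p = 1.000) and 0.72 ± 1.28 for vein wall against spleen (adjusted p = 0.980). Within the sets, thrombus minus spleen was -0.54 in set 1, 0.50 in set 2 and 2.14 in set 3, so the direction was not shared. The SD of Dusp1 between samples of 1 tissue was 1.70 on the log2 scale, above that of 93.8% of tested genes, whose median SD was 0.80. Dusp1 is also known to be induced when tissue is dissociated.

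Dusp5 (chromosome 19, 53529109 to 53542431, plus strand) encodes a nuclear phosphatase specific for ERK. It had 50.4, 3.36, 192 and 106 CPM in thrombus samples 1 to 4, 3.48, 50.3 and 103 CPM in vein wall samples 1, 2 and 3-4, and 63.4, 0.21 and 39.6 CPM in spleen samples 1, 2 and 3-4. Set 2 again held the lowest sample of each tissue, with 60, 55 and 4 exon reads. The gene model of that set spans 1155 exon bases, against 2473 in the others, and per exon length its Dusp5 samples were still the lowest. The SD within tissues, 2.83 on the log2 scale, exceeded that of 99.7% of tested genes.

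For Dusp5, the log2 fold change was 1.35 ± 1.76 (SE) for thrombus against spleen and 0.60 ± 1.82 for vein wall against spleen, with edgeR adjusted p-values of 1.000 and 0.990. The covariate narrowed the error of the first to 0.65 around 1.60, and the adjusted p was 0.618. Thrombus minus spleen was 2.43 in set 2 and 1.83 in set 3, but -0.33 in set 1.

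Dusp2 (chromosome 2, 127336159 to 127338376, plus strand), a nuclear phosphatase that is induced in activated lymphocytes, had values in the other direction. It had 61.2, 13.4, 102 and 73.0 CPM in thrombus samples 1 to 4, 37.8, 23.3 and 120 CPM in vein wall samples 1, 2 and 3-4, and 93.3, 43.3 and 163 CPM in spleen samples 1, 2 and 3-4. The ranges overlapped, although the means were lower in thrombus and vein wall. The log2 fold changes were -0.68 ± 0.67 for thrombus and -0.72 ± 0.72 for vein wall, each against spleen, and neither passed (edgeR adjusted p = 1.000 and 0.963). Within each set both differences were below 0, from -0.60 to -1.66 for thrombus minus spleen and -0.19 and -1.60 for vein wall minus spleen.

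Among the phosphatases that act on JNK and p38, Dusp10 (chromosome 1, 184013302 to 184075636, plus strand) encodes an enzyme found in both cytoplasm and nucleus that has been studied in T cell activation in mice. Thrombus samples 1 to 4 had 329, 179, 88.6 and 65.7 CPM of Dusp10. Vein wall samples 1, 2 and 3-4 had 153, 111 and 83.1 CPM, and spleen samples 1, 2 and 3-4 had 32.2, 34.5 and 29.8 CPM. The spleen samples lay within a narrow band. The lowest thrombus sample had 1.90 times the highest spleen value, and the lowest vein wall sample 2.41 times.

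Mean levels of Dusp10 were 165.5 ± 119 CPM in thrombus (SD, n = 4), 116 ± 35.4 CPM in vein wall (n = 3) and 32.1 ± 2.37 CPM in spleen (n = 3). The log2 fold change of thrombus against spleen was 2.36 ± 0.50 (SE), with an edgeR adjusted p of 0.0826 without the covariate and 0.00369 with it, where the fold change was 2.23 ± 0.36. For vein wall against spleen, 1.85 ± 0.50 had an adjusted p of 0.399, and 2.17 ± 0.38 with the covariate had 0.00973. Thrombus minus spleen was 3.33, 2.36 and 1.34 in sets 1, 2 and 3, and vein wall minus spleen was 2.14 in set 2 and 1.68 in set 3.

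Intron reads were 9.05% to 46.4% of Dusp10 gene reads in thrombus, 13.3% to 26.9% in vein wall and 5.99% to 45.2% in spleen. Scaled like the exon reads, they came to 46.7, 17.8, 61.0 and 56.8 CPM in thrombus samples 1 to 4, to 35.2, 17.1 and 30.5 CPM in vein wall samples 1, 2 and 3-4, and to 26.5, 2.20 and 2.59 CPM in spleen samples 1, 2 and 3-4. Spleen 1 was above thrombus 2 and vein wall 2, so the tissues overlapped in intron reads, unlike in exon reads. These libraries do not mark strand, and reads of overlapping transcripts cannot be separated.

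Dusp16 (chromosome 6, 134715468 to 134792625, minus strand), a cytoplasmic phosphatase that prefers JNK, was the lowest of the 10 genes per exon length in each tissue. It had 5.26, 3.24, 2.33 and 31.0 CPM in thrombus samples 1 to 4, 2.34, 11.8 and 2.35 CPM in vein wall samples 1, 2 and 3-4, and 11.1, 2.41 and 2.37 CPM in spleen samples 1, 2 and 3-4. A single sample stood high in each tissue, and the groups overlapped. The log2 fold changes against spleen were 0.99 ± 1.14 for thrombus and 0.06 ± 1.19 for vein wall, with edgeR adjusted p-values of 1.000 for both. Introns held 18.0% to 88.3% of its gene reads.

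Of the atypical, small DUSPs, Dusp14 (chromosome 11, 84048041 to 84069261, minus strand) lacks the MAP kinase binding domain and has been described in mice as a negative regulator of T cell receptor signalling through TAB1. Dusp14 had 132, 167, 57.2 and 55.3 CPM in thrombus samples 1 to 4. It had 153, 96.4 and 139 CPM in vein wall samples 1, 2 and 3-4, against 20.2, 31.6 and 19.1 CPM in spleen samples 1, 2 and 3-4. Both thrombus samples of set 3 were the low ones of that tissue and were still above all spleen samples. The lowest value was 1.75 times the highest spleen value in thrombus and 3.05 times in vein wall.

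The mean of Dusp14 was 103 ± 55.9 CPM in thrombus (SD, n = 4), 129.5 ± 29.4 CPM in vein wall (n = 3) and 23.6 ± 6.91 CPM in spleen (n = 3). Against spleen, the log2 fold change in thrombus was 2.13 ± 0.46 (SE; edgeR adjusted p = 0.101) and 2.14 ± 0.36 with the covariate (adjusted p = 0.00487). In vein wall it was 2.46 ± 0.48 (adjusted p = 0.0597) and 2.70 ± 0.40 with the covariate (adjusted p = 0.00163). Within sets 1, 2 and 3, thrombus minus spleen was 2.68, 2.39 and 1.53, and vein wall minus spleen was 2.26 in set 2 and 2.57 in set 3. Unlike Dusp4 and Dusp10, it had few intron reads, at most 10.4% of its gene reads in any sample.

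Dusp22 (chromosome 13, 30659999 to 30711231, plus strand), described in mice as an inhibitor of the T cell receptor kinase Lck, showed no shared direction. It had 2.98, 11.4, 2.33 and 6.40 CPM in thrombus samples 1 to 4, 1.33, 8.11 and 4.61 CPM in vein wall samples 1, 2 and 3-4, and 0.63, 9.06 and 4.95 CPM in spleen samples 1, 2 and 3-4. Log2 fold changes were 0.24 ± 1.19 in thrombus and -0.06 ± 1.26 in vein wall against spleen (edgeR adjusted p = 1.000 for both). Its exon length differs by file set, 1743, 3150 and 5108 bases, so levels of different sets are not on 1 scale before division by length.

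Dusp6 and Dusp7 encode cytoplasmic phosphatases that act on ERK. Dusp6 (chromosome 10, 99263231 to 99267488, plus strand), a common readout of ERK activity, had 44.5, 25.3, 15.2 and 15.6 CPM in thrombus samples 1 to 4, 16.9, 19.9 and 45.4 CPM in vein wall samples 1, 2 and 3-4, and 54.8, 24.8 and 25.2 CPM in spleen samples 1, 2 and 3-4. The groups overlapped. The log2 fold changes of Dusp6 against spleen were -0.47 ± 0.57 in thrombus and -0.35 ± 0.61 in vein wall, with edgeR adjusted p-values of 1.000 and 0.980. In set 2 alone, Dusp6 exon reads included some that matched more than 1 place, 20.97% in thrombus 2, 33.3% in vein wall 1 and 38.0% in spleen 2.

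Dusp7 (chromosome 9, 106368632 to 106375724, plus strand) had 14.0, 4.08, 11.1 and 16.1 CPM in thrombus samples 1 to 4, 7.16, 1.83 and 7.73 CPM in vein wall samples 1, 2 and 3-4, and 8.34, 7.08 and 8.83 CPM in spleen samples 1, 2 and 3-4. All spleen values lay inside the thrombus range, and the vein wall range reached into both. Its log2 fold changes were 0.48 ± 0.86 in thrombus and -0.54 ± 0.91 in vein wall against spleen, with edgeR adjusted p-values of 1.000 and 0.980.

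**Figure D2:**
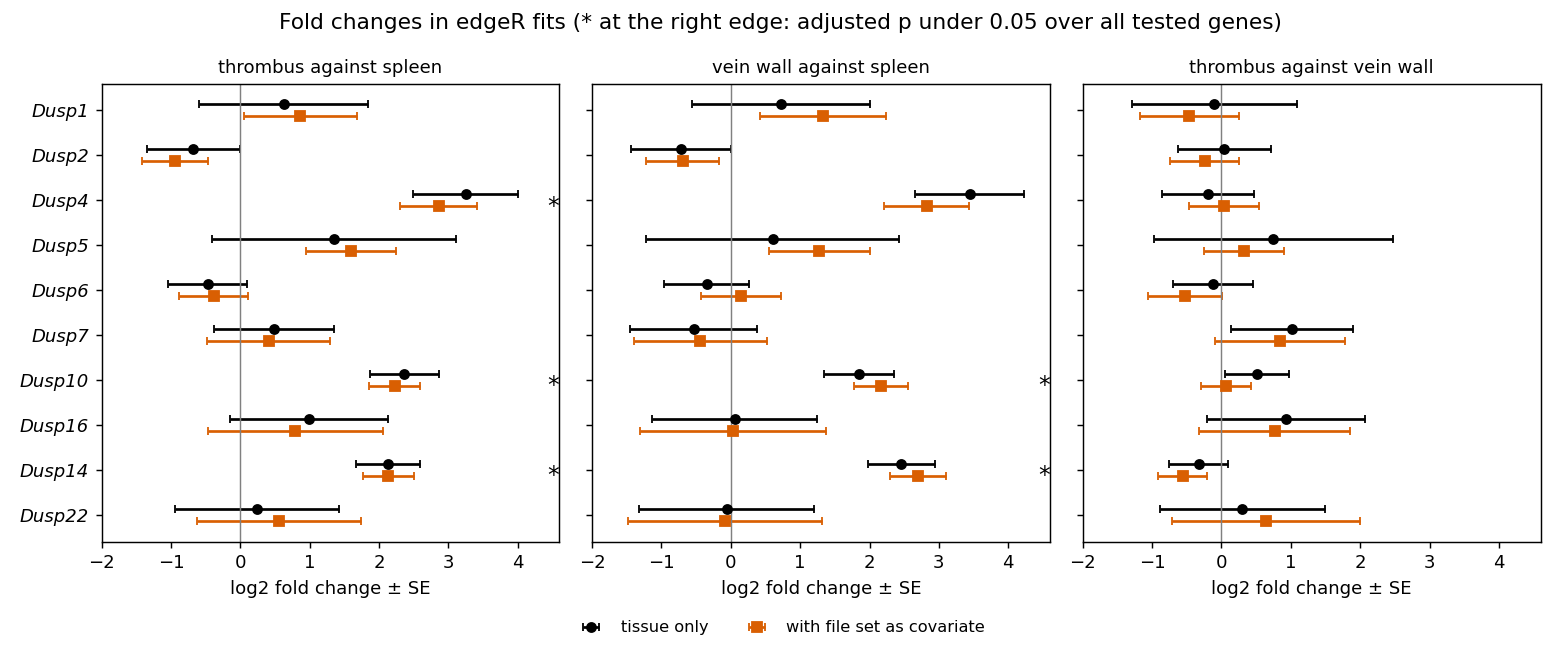
Points give the log2 fold change of each gene with its standard error in the 3 comparisons, black for the fit on tissue alone and orange for the fit with the file set as covariate. Asterisks at the right edge mark an adjusted p under 0.05 and stand at Dusp4, Dusp10 and Dusp14 for thrombus against spleen and at Dusp10 and Dusp14 for vein wall against spleen, in the covariate fit only.

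Thrombus and vein wall were also compared with each other. The groups overlapped for all 10 genes, where 2.35% of all tested genes were higher in every thrombus sample and 1.48% lower. No DUSP passed in the edgeR test, with or without the covariate, none had an unadjusted p under 0.05 without it, and DESeq2 called none; of all genes, 0% were called by edgeR, 340 (2.91%) had an unadjusted p under 0.05, and DESeq2 called 48. The log2 fold change of thrombus against vein wall was -0.19 ± 0.66 (SE) for Dusp4, 0.51 ± 0.46 for Dusp10 and -0.33 ± 0.43 for Dusp14. These errors leave room for differences of either sign. The comparisons with spleen share their spleen samples, so a similar pattern at both sites is not independent evidence.

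**Figure D3:**
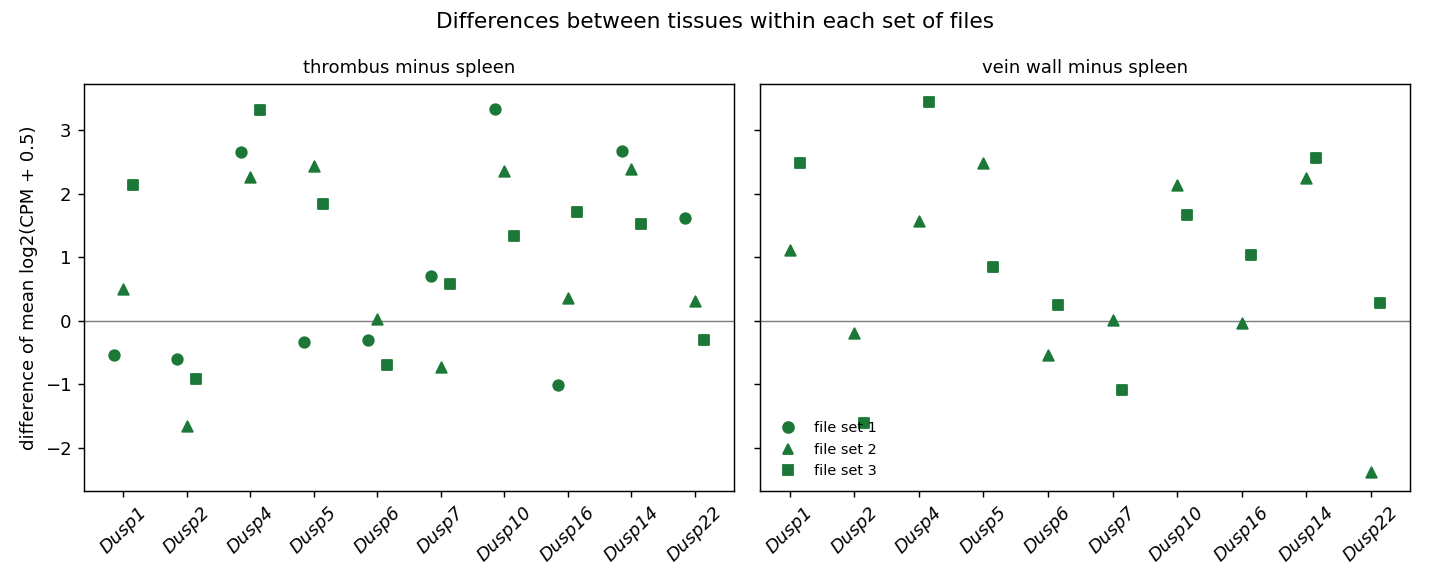
For each gene, points give the difference between tissues within 1 set of files on the log2(CPM + 0.5) scale, thrombus minus spleen at left and vein wall minus spleen at right; set 1 has no vein wall sample. Dusp4, Dusp10 and Dusp14 lie above 0 in every set, from 1.34 to 3.45, whereas Dusp1, Dusp5, Dusp6, Dusp7, Dusp16 and Dusp22 lie on both sides of 0 for thrombus minus spleen.

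Levels of different genes were compared per exon length, as RPKM (exon reads scaled by exon length and by the library size used for CPM). Dusp1 had the highest mean in each tissue, at 491 ± 476 RPKM in thrombus, 567 ± 475 in vein wall and 270 ± 304 in spleen. In spleen, Dusp2 came next at 57.9 ± 38.2 RPKM, and Dusp14 and Dusp10 were the fifth and the sixth, at 11.2 ± 1.98 and 10.9 ± 1.36 RPKM. In thrombus, Dusp10 was the second at 55.8 ± 39.5 RPKM and Dusp14 the third at 49.3 ± 23.6 RPKM, and in vein wall Dusp14 was the second at 62.2 ± 11.4 RPKM and Dusp10 the third at 39.7 ± 14.3 RPKM. Dusp4 had 14.6 ± 7.32 RPKM in thrombus and 16.6 ± 14.0 RPKM in vein wall, against 1.55 ± 0.48 RPKM in spleen.

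Most neighbours in this order had overlapping ranges, 8 of 9 pairs in thrombus, 7 of 9 in vein wall and 6 of 9 in spleen. The pairs set apart were Dusp6 over Dusp7 in thrombus, Dusp1 over Dusp14 and Dusp6 over Dusp7 in vein wall, and Dusp2 over Dusp5, Dusp10 over Dusp7 and Dusp7 over Dusp4 in spleen.

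**Figure D4:**
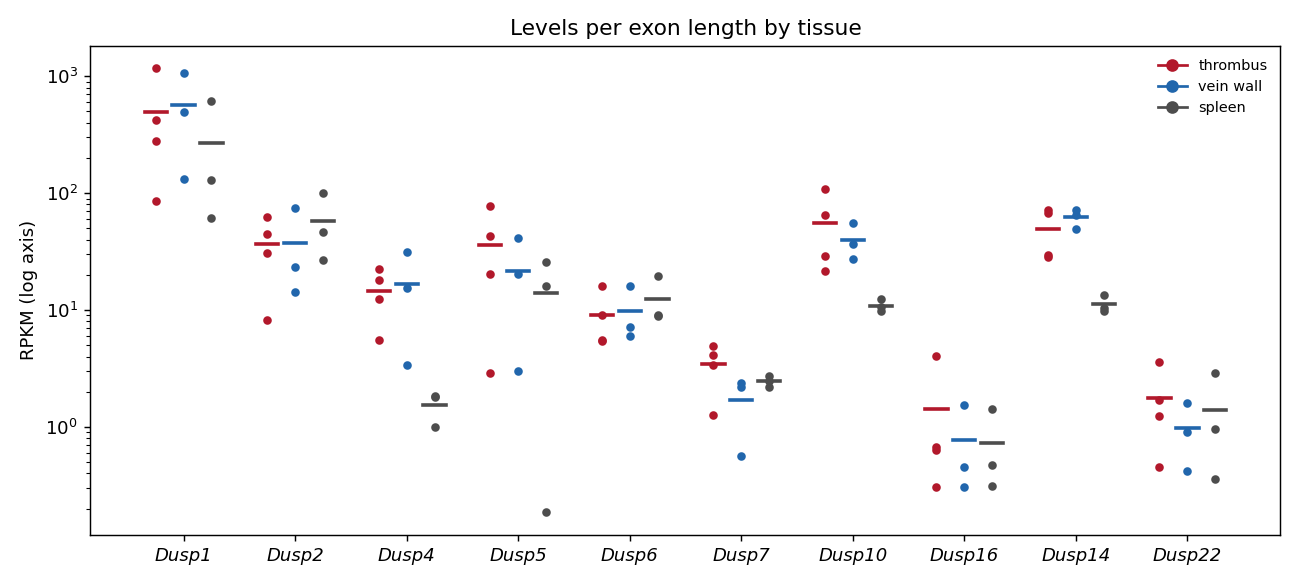
Points are samples and bars tissue means of each gene in RPKM on a log axis, with thrombus, vein wall and spleen side by side. Dusp1 is highest and Dusp16 lowest by mean in all 3 tissues, and the spleen points of Dusp4, Dusp10 and Dusp14 stand below those of thrombus and vein wall.

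Over the 10 samples, Dusp10 and Dusp14 were the pair of DUSPs with the most alike pattern, with a root mean square difference of 0.51 between their centred log2 CPM. The tested genes most alike to Dusp10 were Gadd45b (0.41), Ramp3 (0.43) and Gramd3 (0.44), by the same measure. Those most alike to Dusp14 were Rasgef1b (0.40), Hilpda (0.43) and D16Ertd472e (0.48), and those most alike to Dusp4 were Tctex1d1 (0.52), Cbarp (0.59) and Polg2 (0.72). For Dusp1 these were Rims3 (0.50), Foxo4 (0.56) and Slc44a1 (0.57), and for Dusp5 Usp50 (0.83), Cfap43 (0.92) and Plcg1 (0.92). These values share tissue and file set and are descriptions only. For Dusp2 the nearest were Cpox, Smyd2 and Brf1, for Dusp6 Hcfc1, Gigyf2 and Ubqln4, for Dusp7 Tbc1d20, Srrt and Lrch1, for Dusp16 4930432K21Rik, Fam122b and Cpxm1, and for Dusp22 Lysmd3, Mef2a and Ccpg1, with differences from 0.27 to 0.56.

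The promoters of 4 genes are given because Dusp10 and Dusp14 varied together and Dusp5 and Dusp1 had the largest SDs within tissues of the 10 genes. Each is the RefSeq sequence of GRCm38.p6 from 250 bases before to 50 bases after an annotated start, printed 5′ to 3′ on the gene's strand, and capitals mark the motif matches named after them. Dusp10 is chr1:184034131-184034430 on the plus strand, Dusp14 is chr11:84068308-84068607 on the minus strand, Dusp1 is chr17:26508423-26508722 on the minus strand and Dusp5 is chr19:53528895-53529194 on the plus strand.
Dusp10: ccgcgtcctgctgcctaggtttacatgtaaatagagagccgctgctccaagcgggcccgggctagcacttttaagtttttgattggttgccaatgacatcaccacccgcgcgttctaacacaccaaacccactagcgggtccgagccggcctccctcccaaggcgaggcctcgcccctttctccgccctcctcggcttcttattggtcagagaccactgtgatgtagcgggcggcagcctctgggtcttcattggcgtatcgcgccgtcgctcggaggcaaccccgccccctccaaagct
Dusp14: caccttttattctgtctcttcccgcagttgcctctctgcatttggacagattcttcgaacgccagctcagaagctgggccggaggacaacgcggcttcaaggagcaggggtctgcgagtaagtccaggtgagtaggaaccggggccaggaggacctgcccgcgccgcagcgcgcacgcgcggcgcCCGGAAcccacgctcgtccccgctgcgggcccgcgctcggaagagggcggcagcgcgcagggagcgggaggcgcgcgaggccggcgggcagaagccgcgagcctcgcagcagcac
Dusp1: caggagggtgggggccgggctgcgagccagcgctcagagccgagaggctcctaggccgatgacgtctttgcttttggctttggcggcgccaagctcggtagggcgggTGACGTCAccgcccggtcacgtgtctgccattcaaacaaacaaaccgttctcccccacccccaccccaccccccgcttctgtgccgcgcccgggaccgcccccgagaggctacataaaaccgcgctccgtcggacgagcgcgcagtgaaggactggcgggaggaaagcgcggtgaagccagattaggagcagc
Dusp5: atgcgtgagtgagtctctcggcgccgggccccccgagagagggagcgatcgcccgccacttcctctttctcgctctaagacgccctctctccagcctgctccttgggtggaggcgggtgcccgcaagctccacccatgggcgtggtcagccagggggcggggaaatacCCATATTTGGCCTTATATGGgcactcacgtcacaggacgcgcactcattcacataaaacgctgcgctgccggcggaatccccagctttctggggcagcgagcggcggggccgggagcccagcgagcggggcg

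Motifs were searched on both strands of the 9 promoters available for these genes and of all 32851 promoters of the same length. The cyclic AMP response element TGACGTCA was found in Dusp1, at -143 to -136 from the start, and in 1.79% of all promoters. The CArG box bound by serum response factor was found at 2 adjoining places in Dusp5, from -82 to -63, and in 1.63% of all promoters. The ETS core CCGGAA was found in Dusp14, at -65 to -60, and in 14.9% of all promoters. An NF-kB site was found in Dusp22, at 2 overlapping places, and in 8.46% of all. The AP-1 site TGANTCA was in none of the 9, against 7.81% of all promoters, and Dusp10 held none of the 5 motifs. The Dusp10 and Dusp14 promoters lie inside the gene spans given above, and the upstream ends of those spans were not searched. A match is a description of letters and not evidence of binding.

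Short-lived messages often carry AU-rich elements in the 3′ UTR. In GENCODE M21, the longest annotated 3′ UTR of Dusp1 (690 bases) and of Dusp2 (581 bases) held 4 ATTTA each, 5.80 and 6.88 per kilobase, more than in 96.1% and 97.7% of 11170 tested genes, whose median was 1.36. Dusp10 had 3, or 2.69 per kilobase, Dusp4 had 2, and Dusp14 and Dusp7 had none. Dusp1 alone of the 10 held the nonamer TTATTTATT, at 2 places, and 8.68% of tested genes hold it. The first, shown in capitals because it sets Dusp1 apart from the other members, begins at base 103 of the UTR.
Dusp1 element: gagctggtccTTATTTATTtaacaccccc

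Other genes of the pathway were described from lists of 14 further DUSP genes, 10 MAP kinases, 25 upstream kinases and GTPases, 20 other negative regulators and 32 MAP kinase-responsive genes. None of the genes tested from the first 4 of these lists was called against spleen in edgeR, with or without the covariate. At an unadjusted p under 0.05 without it, the 4 lists in that order held 2, 1, 1 and 0 genes in thrombus and 0, 0, 1 and 1 in vein wall. DESeq2 called 1 of the further DUSP genes in thrombus and none of the other 3 lists at either site. Dusp11, which acts on RNA, and Dusp12 had log2 fold changes of 0.24 ± 0.35 and -1.02 ± 0.46 in thrombus against spleen. Of the 9 MAP kinases tested, Mapk9, which encodes JNK2, had -0.31 ± 0.46 in the same comparison. The 24 upstream genes had a median of -0.17, with Araf at 0.11 ± 0.35 and Rasgrp1, the Ras activator downstream of the T cell receptor, at -0.12 ± 0.49. The 18 other negative regulators had a median of -0.17, with the phosphatases Ptpn6 at -0.15 ± 0.36 and Ptpn22 at -0.35 ± 0.42. The median over all tested genes was 0.03. The 10 DUSPs had a median of 0.80 in thrombus against spleen, with 8 above 0 where 52.2% of all genes were, and of 0.33 in vein wall against spleen, with 6 above 0 where 49.0% were.

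Of 31 MAP kinase-responsive genes tested, 23 were above 0 in thrombus against spleen with a median of 0.71, and 19 in vein wall with a median of 0.42. Nr4a1 and Nr4a3, nuclear receptors induced by T cell receptor signalling, rose in thrombus against spleen, by 2.49 ± 0.45 and 2.38 ± 0.46 on the log2 scale (edgeR adjusted p = 0.0196 and 0.0350). Nr4a1 averaged 662.5 ± 276 CPM in thrombus and 430 ± 247 CPM in vein wall, against 118 ± 39.6 CPM in spleen. In vein wall no gene of the list passed in edgeR (10 had an unadjusted p under 0.05, and DESeq2 called 4). With the covariate, 4 genes were called in thrombus and 3 in vein wall. The AP-1 subunits Fosl2 and Junb rose then in thrombus by 5.34 ± 0.65 and 2.26 ± 0.27, and in vein wall by 5.41 ± 0.71 and 2.27 ± 0.30, and Nr4a3 rose in vein wall by 2.82 ± 0.37.

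Genes associated with tissue dissociation, a list that includes Dusp1 and Junb, had higher median sums at both sites, with overlapping ranges. Their summed level was 13480 to 21280 CPM in thrombus and 14280 to 19520 CPM in vein wall, against 10060 to 14600 CPM in spleen, with medians of 16680, 14750 and 10290 CPM in that order. Of 26 tested, 24 were above 0 in thrombus against spleen and 17 in vein wall against spleen. None passed in edgeR without the covariate (4 and 5 had an unadjusted p under 0.05, and DESeq2 called 2 and 2), and with it 3 and 4 did, among them Btg2 (1.46 ± 0.24 in thrombus and 1.40 ± 0.26 in vein wall), Nfkbia (0.98 ± 0.19 and 1.02 ± 0.21) and, in vein wall, Dnaja1 (1.09 ± 0.23). The part of dissociation in the levels of Dusp4, Dusp10 and Dusp14 was not tested.

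Markers of other cells were compared by their summed levels. No gene of the dendritic cell, B cell, fibroblast, macrophage or platelet lists was called against spleen in edgeR, with or without the covariate. At an unadjusted p under 0.05 without it, these lists in that order held 2, 2, 4, 1 and 1 genes in thrombus and 1, 2, 4, 0 and 0 in vein wall, and DESeq2 called 0, 0, 3, 1 and 0 and 0, 1, 4, 0 and 0. All 11 dendritic cell and MHC class II markers together had 1734 to 11770 CPM in thrombus and 2459 to 12750 CPM in vein wall, against 1194 to 2352 CPM in spleen; the highest thrombus and vein wall samples were those of set 2. The thrombus range overlapped that of spleen, and the lowest vein wall sum was just above the highest spleen sum. Within this list, Cd74 averaged 2947 CPM in thrombus and 3876 CPM in vein wall, against 1329 CPM in spleen, whereas Zbtb46 averaged 6.41 and 2.38 CPM, against 7.93 CPM in spleen; Clec9a was at 0 in all spleen samples and averaged 1.08 CPM in thrombus and 0.11 CPM in vein wall. All 9 B and plasma cell markers together had 210 to 936 CPM in thrombus and 390 to 1380 CPM in vein wall, against 123 to 342 CPM in spleen, which the thrombus range alone overlapped. All 9 fibroblast markers together had 6.03 to 22.1 CPM in thrombus and 13.2 to 61.7 CPM in vein wall, against 0.05 to 2.89 CPM in spleen, where Col1a2, Col3a1, Pdgfra and Mmp2 were at 0, and neither range overlapped that of spleen. The 11 macrophage and monocyte markers had 51.5 to 1762 CPM in thrombus, 23.7 to 267 CPM in vein wall and 58.7 to 226 CPM in spleen. Platelet markers summed to 5.71 to 50.1 CPM in thrombus, 0 to 6.46 CPM in vein wall and 1.23 to 5.82 CPM in spleen. Macrophage and platelet ranges overlapped between all 3 tissues. Cd69 itself averaged 586 ± 175 CPM in thrombus and 753 ± 121 CPM in vein wall, against 280 ± 58.7 CPM in spleen, and rose with the covariate (edgeR adjusted p = 0.0246 and 0.00859). The part of these cells, or of the strength of CD69 expression, in the DUSP levels was not tested.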

How the data were processed

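Libraries were SMART-Seq cDNA (2 ng RNA input, 12 amplification cycles) tagmented with Nextera XT, per the labels' protocols, which keeps neither strand nor molecular identifiers. The genome build was GRCm38, as the submitters' processing notes give it. Aligner and counter: not given in the sources used here. Each deposited table holds counts of exon, intron and gene reads and exon lengths per gene, per the file headers. Deposited RPKM values use decimal commas and were not read; RPKM was computed here from counts and exon length in their place. Sets 1 and 3 were joined on Ensembl ID and set 2 by name, chromosome and strand. Between 92.2% and 96.3% of exon reads fell in joined genes.

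Near-duplicate libraries were summed. edgeR 4.0.16 (R 4.3.3) with TMM scaling, its filter on low counts and the robust quasi-likelihood F test was fitted on tissue over 10 samples and tested on simulated data. p-values were adjusted by Benjamini-Hochberg over 11691 genes. SE is the fold change divided by the root of F. CPM values use TMM-scaled library sizes, in which 3 reads correspond to 0.0388 to 0.317 CPM. Alternatives were the file set as covariate, 12 separate libraries, a replicate block on those 12, DESeq2 1.42.0 and its size factors. Further ones were no filter, unique reads, limma 3.58.1 on log2(RPKM + 0.1), each sample left out, and, chosen after seeing the data, no set 2 libraries. The members, lists and alternatives were chosen with earlier results of these data known. Named genes were all members, the sort markers, the called genes of each list (at most 4, otherwise the 2 of highest level) and the 3 most alike genes per member. The value of 1 gene that this rule names is not reported here. The main fit did not pair samples by the replicate numbers of the labels. Deviations of same-numbered libraries from their tissue means correlated at -0.0683 (spleen 1 with vein wall 1) to 0.397 (spleen 1 with thrombus 1). Same-numbered thrombus and spleen libraries correlated at 0.0938 to 0.397. Between thrombus and spleen, libraries of the same number are also of the same file set, so number and set cannot be told apart there. These values therefore cannot show whether the samples were paired.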

Additional observations from a re-analysis of the deposited data

Results flagged for a closer look

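Dusp16 in thrombus sample 4, at 31.0 CPM, stood far above the other 3 thrombus samples, which had 2.33 to 5.26 CPM, with a gap of 0.90 of the whole thrombus range. For values with a normal distribution, chance gives about 1 such gap in 20 groups of this size, and 10 genes were examined. The gap was taken on CPM without a log, which need not follow that distribution, so this rate may not hold. It rests on 334 exon reads, and 30.9% of its gene reads were intronic, against 69.1% to 88.3% in the other thrombus samples. Reads joining exons numbered 0 in this sample, as in thrombus 1 and thrombus 3.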

How the results depend on the processing

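Dusp4, Dusp10 and Dusp14 kept their direction against spleen under all 19 alternatives: from 2.86 to 3.56, 1.79 to 2.63 and 1.78 to 2.41 on the log2 scale in thrombus, and 2.59 to 3.97, 1.59 to 2.17 and 2.25 to 2.75 in vein wall. Their adjusted p ran from 0.000534 to 0.806, 9.74e-05 to 0.558 and 0.00201 to 0.610 in thrombus and from 0.000176 to 0.685, 0.00973 to 0.935 and 0.000173 to 0.364 in vein wall; each passed in 7, 7 and 5 and in 5, 3 and 8 of the 19. Members called (main 0 and 0) for thrombus and vein wall against spleen were 3 and 2 with the file set as covariate, 3 and 2 over 12 libraries, 3 and 2 by DESeq2, 3 and 3 without a filter, 3 and 3 with the replicate block, and 1 (Dusp4) and 0 without set 2. Genes called (17 and 13) were 53 and 48, 35 and 51, 148 and 200, 80 and 66, 52 and 67, and 18 and 8 under the same settings, 11 and 10 by limma on RPKM, and 13 and 7 on unique reads. The fits over 12 libraries and with the replicate block count the near-duplicate libraries as separate samples, and both are among the 19. For thrombus against vein wall (0), DESeq2 called 48 genes and the fit without a filter 2. Leaving out 1 sample gave 6 (no spleen 2) to 34 (no spleen 1) genes and 0 to 1 members in thrombus, 5 (no spleen 2) to 28 (no spleen 1) genes and 0 to 1 members in vein wall, and 0 to 1 genes between the sites. The members called were, in thrombus, Dusp10 without thrombus 3 or 4 (adjusted p = 0.0473 and 0.0269) and Dusp4 without vein wall 1 (0.0303), and in vein wall Dusp14 without thrombus 2, 3 or 4 (0.0238, 0.0450 and 0.0422) and Dusp4 without vein wall 1 (0.0162). The cause of these moves was not tested.

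Signs turned for uncalled values. Against spleen in vein wall, Dusp6 was 0.14 with the covariate and 0.092 with the block, Dusp22 0.049 with the block and 1.22 without set 2, and Dusp16 -0.16 by limma. For thrombus against vein wall, Dusp2 was -0.24 over 12 libraries, -0.24 with the covariate, -0.24 with the block and -0.068 without a filter, Dusp4 0.036 with the covariate and 0.27 by limma, Dusp5 -0.60 with the block, Dusp6 0.0084 by limma and Dusp22 -0.71 without set 2. Leaving out 1 sample gave, in thrombus against spleen, -0.13 to 2.48 for Dusp1, -0.55 to 2.12 for Dusp16, -0.32 to 1.07 for Dusp22 and -0.90 to 0.0052 for Dusp6. In vein wall against spleen it gave -0.14 to 2.58 for Dusp1, -1.14 to 1.19 for Dusp16, -0.70 to 0.78 for Dusp22, -0.36 to 1.38 for Dusp5 and -0.92 to 0.13 for Dusp6. Between the sites it gave -0.85 to 0.76 for Dusp1, -0.058 to 0.78 for Dusp10, -0.60 to 2.15 for Dusp16, -0.36 to 1.03 for Dusp2, -0.27 to 0.95 for Dusp22, -0.70 to 0.66 for Dusp4 and -0.55 to 0.45 for Dusp6. In the DESeq2 test the median of all genes was 0.23 for thrombus against spleen. Low reads limit Dusp5 in set 2 and Dusp4 in spleen. They also limit Dusp22, with 9 exon reads in spleen 1, 21 in vein wall 1 and 22 in thrombus 3. The same holds for Dusp16, with 22 in thrombus 3 and 37 in vein wall 1.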
